A study of Mus musculus with 10 samples.

Results

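The mRNA levels of 10 enzymes of ceramide and sphingolipid metabolism were examined in the livers of obese, diabetic mice. The enzymes were chosen by gene symbol: *Sptlc1*, *Sptlc2*, *Cers2*, *Cers5*, *Cers6*, *Degs1*, *Smpd1*, *Sgms1*, *Asah1* and *Sphk2*. All 10 had a row in the deposited RNA-seq table of 15126 genes. The values are those of 5 AAV8-Control livers. These came from *db/db* mice, which lack a working leptin receptor and develop obesity, diabetes and fatty liver. The mice had received adeno-associated virus serotype 8 encoding eGFP, a green fluorescent protein, and were 10 weeks old, 5 weeks after infection. The vector was given by tail vein, a route by which this serotype reaches mainly hepatocytes, and its promoter is not given in the sources used here. No lean and no uninfected liver was analysed here, so the levels describe obese, virus-treated livers.

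Ceramide is the hub of sphingolipid metabolism. It is built from serine and palmitoyl-CoA on the endoplasmic reticulum, through serine palmitoyltransferase, a ketoreductase, the ceramide synthases and a desaturase. It can then be turned into sphingomyelin or glycosphingolipids, or broken down to sphingosine, which sphingosine kinases phosphorylate to the signalling lipid sphingosine-1-phosphate. In fatty liver, ceramides are studied because they can blunt insulin signalling, and the chain length of a ceramide depends on which synthase made it. Enzyme protein, activity and lipid levels were not analysed here.

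The libraries held 19499795 to 35498596 reads counted on genes, and a single read equalled 0.0282 to 0.0513 CPM (read counts scaled to a fixed library total). The 6 hepatocyte markers had reads in every library, with a summed level of 95950 to 130456 CPM. The summed markers of Kupffer cells (101 to 202 CPM), sinusoidal endothelial cells (98.1 to 194), stellate cells (227 to 307) and cholangiocytes (33.5 to 54.0), with 6 of 6 markers each, were far lower. Lymphocyte markers (6 of 6) summed to 4.16 to 7.85 CPM and neutrophil markers (4 of 5) to 1.16 to 2.65 CPM. The cell type label reads primary hepatocytes and the protocol labels describe hepatocytes in culture, while the tissue label and the study's methods give liver. As sums, the markers of every other cell type had reads in every library, but 1 cholangiocyte marker and 1 lymphocyte marker had none in at least 1 library. The markers alone do not decide between these labels. These are bulk samples: fewer cells of a type and less mRNA per cell cannot be told apart. Nothing in the labels says that the replicates came from separate animals, so a liver here means a sample and an SD measures the spread between these samples only.

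The sequences before the RefSeq transcription start are shown for *Degs1* and *Cers6*, which share an E-box (CACGTG) but differ widely in level, and for *Smpd1*, whose stretch held the most GC boxes (GGGCGG) among the enzymes. They are from RefSeq (GRCm38.p6), 5′ to 3′ on the gene's strand, without bases under annotated exons. Capitals mark a CCAAT box, a GC box or an E-box on either strand.
Degs1, chr1:182282225-182282445, minus strand, ending 30 bases before the start: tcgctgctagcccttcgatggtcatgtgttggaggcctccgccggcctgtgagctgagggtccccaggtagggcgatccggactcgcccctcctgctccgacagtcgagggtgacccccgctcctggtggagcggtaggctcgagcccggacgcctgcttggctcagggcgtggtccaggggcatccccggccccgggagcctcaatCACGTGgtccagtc
Cers6, chr2:68861191-68861440, plus strand, ending at the base before the start: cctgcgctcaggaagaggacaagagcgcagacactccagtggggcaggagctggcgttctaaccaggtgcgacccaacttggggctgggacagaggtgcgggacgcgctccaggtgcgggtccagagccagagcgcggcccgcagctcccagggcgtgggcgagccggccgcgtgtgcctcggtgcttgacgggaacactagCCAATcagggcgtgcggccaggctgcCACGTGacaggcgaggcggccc
Smpd1, chr7:105554110-105554359, plus strand, ending at the base before the start: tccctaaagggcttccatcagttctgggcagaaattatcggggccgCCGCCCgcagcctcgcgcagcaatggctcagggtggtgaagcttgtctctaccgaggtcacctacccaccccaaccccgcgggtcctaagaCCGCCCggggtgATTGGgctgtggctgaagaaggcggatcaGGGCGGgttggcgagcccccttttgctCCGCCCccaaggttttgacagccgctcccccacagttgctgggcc
The *Degs1* stretch held an E-box alone, and the *Cers6* stretch held an E-box and a CCAAT box. The *Smpd1* stretch held 4 GC boxes and 1 CCAAT box. GC content was 69.7%, 70.4% and 64.8%, in that order. A further E-box lay before 1 of 2 RefSeq starts of *Cers2*, the most abundant of the enzymes. It lies inside the gene as GENCODE bounds it, and is shown with the bases around it, with capitals for the E-box alone.
Cers2, chr3:95315049-95315078, plus strand: cgccctgcggggCACGTGccacccgccccg
The E-box began 43 bases before the RefSeq start of *Degs1*, 22 before that of *Cers6* and 129 before that start of *Cers2*. The gene coordinates given with the values are those of GENCODE, which begins *Degs1* and *Cers2* further upstream, so there both E-boxes fall within the gene.

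RefSeq windows of 250 bases were found for 9 of the 10 enzymes (14 windows, since some have several starts), and *Asah1* was not in the table. The E-box CACGTG, which reads the same on both strands and is the core recognised by many basic helix-loop-helix factors, was in a window of 3 of the 9 enzymes and in 6.02% of all 32851 windows. A CCAAT box (CCAAT, both strands) was in a window of 7 of the 9 and in 33.8% of all windows. A GC box (GGGCGG, both strands) was likewise in 7 of the 9 and in 32.7% of all windows. The letters TATAAA (12.4% of all windows), TGACGTCA (1.55%), TGTTTAC (3.17%) and GCCATNTTG (1.33%), searched on both strands, were in no window of the 9 enzymes. No motif searched is contained in another. A match describes letters only. Enzymes were counted once over all their windows while the shares are per window, so the counts and the shares are not like for like. An enzyme with several windows had several chances to hold a match.

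The levels of the enzymes, as CPM per kilobase of exon, spanned a wide range. *Cers2*, the ceramide synthase that makes very-long-chain ceramides, was by far the most abundant of the 10, at 126 ± 2.51 CPM per kilobase (SD, n = 5). *Degs1*, the desaturase that turns dihydroceramide into ceramide, followed at 30.2 ± 2.17. The lysosomal sphingomyelinase *Smpd1* was at 16.3 ± 1.68, the sphingosine kinase *Sphk2* at 14.9 ± 3.14 and the acid ceramidase *Asah1* at 10.1 ± 0.647 CPM per kilobase. The palmitoyltransferase subunits were lower, with *Sptlc1* at 6.32 ± 0.364 and *Sptlc2* at 3.04 ± 0.278 CPM per kilobase. *Cers6*, at 1.99 ± 0.499, *Sgms1*, at 1.57 ± 0.162, and *Cers5*, at 0.502 ± 0.0998 CPM per kilobase, were the lowest.

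Most neighbours in this order were separated in every liver. The ranges did not overlap between *Cers2*, *Degs1* and *Smpd1*, between *Sphk2*, *Asah1*, *Sptlc1* and *Sptlc2*, or between *Sgms1* and *Cers5*. *Smpd1* exceeded *Sphk2* in 4 of 5 livers, and *Sptlc2* exceeded *Cers6* in 4 of 5, with overlapping ranges in both pairs. *Cers6* exceeded *Sgms1* in 5 of 5 livers although their ranges overlapped. Of the 11036 genes averaging 1 CPM or more, 96.9% were below *Cers2* per kilobase, 89.7% below *Degs1* and 83.4% below *Smpd1*. At the other end, 37.2% were below *Cers6*, 31.0% below *Sgms1* and 9.86% below *Cers5*.

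**Figure D1:**
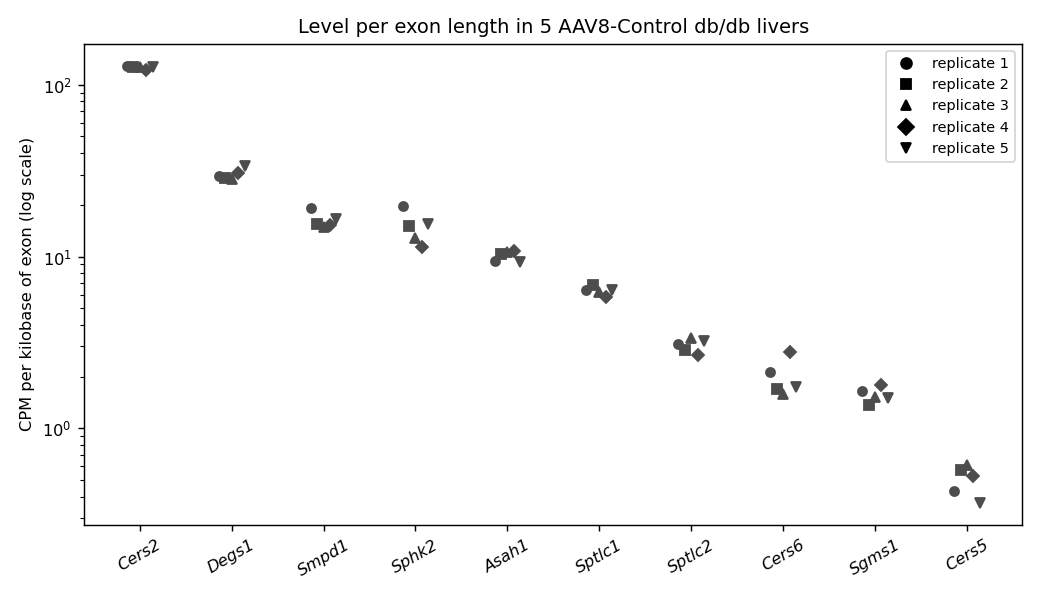
Level of each enzyme in CPM per kilobase of exon (y axis, log scale) in 5 AAV8-Control livers, with enzymes ordered by their mean on the x axis and a symbol per replicate. The means run from 126 for Cers2 to 0.502 for Cers5, and the overlaps are between Smpd1 and Sphk2, Sptlc2 and Cers6, and Cers6 and Sgms1.

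The length used for an enzyme bears on this order. With the longest coding transcript in place of all annotated exons, *Sgms1* was at 4.09 CPM per kilobase, above *Sptlc2* at 3.68 in 4 of 5 livers, with overlapping ranges, and above *Cers6* at 2.51 in 5 of 5. The exons of *Sgms1* cover 10546 bases in the annotation and its longest coding transcript 4036 bases. *Cers2* stayed the highest, at 209, followed by *Degs1* at 38.2 and *Smpd1* at 22.5 CPM per kilobase, and *Cers5* stayed the lowest, at 0.641.

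Shares of the summed mRNA per kilobase were computed for the ceramide synthases and for 3 pairs. The pairs were *Degs1* and *Degs2* (desaturases), *Sphk1* and *Sphk2* (sphingosine kinases), and *Sgms1* and *Sgms2* (sphingomyelin synthases). In each of these sums a single gene held most of it. *Cers2* made up 97.9% ± 0.421 (SD, n = 5) of the summed ceramide synthases, with 97.2% to 98.3% in the single livers. *Cers6*, which makes ceramides of shorter chains, made up 1.55% ± 0.410, *Cers5*, with overlapping chain-length preference, 0.390% ± 0.0782 and *Cers4* 0.144% ± 0.0460. *Cers1*, a synthase known from muscle and brain, had 0 to 2 reads in a library. The level of *Cers6* relative to *Cers2* was 0.0158 ± 0.00427 and ranged from 0.0124 to 0.0229 between livers. The shares cover only the genes named for each family that had a row in the table used. The related genes *Fads3* and *Samd8* had rows, at 2.72 and 4.02 CPM per kilobase, but were not counted in any share. *Sptlc3* and *Cers3* were looked up without a match and not analysed here.

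*Degs1* was 99.5% ± 0.116 of the summed *Degs1* and *Degs2* mRNA per kilobase (SD, n = 5), with 5 to 15 reads of *Degs2* a library. *Fads3*, listed with the rest of de novo synthesis, was not counted in this sum. It was at 2.72 ± 0.302 CPM per kilobase, against 0.145 ± 0.0321 for *Degs2*. *Sphk2* was 99.5% ± 0.182 of the sphingosine kinase mRNA, the rest being *Sphk1*, with 6 to 12 reads a library. Sphingomyelin synthases showed the opposite arrangement. *Sgms1*, the Golgi enzyme, was the minor form at 20.0% ± 1.58, against 80.0% ± 1.58 for *Sgms2*, which also acts at the plasma membrane. By the longest coding transcript the share of *Sgms1* was 37.8% ± 2.30, still the smaller. *Sptlc1*, the subunit shared by all palmitoyltransferase complexes, was at 2.09 ± 0.202 times the level of the catalytic subunit *Sptlc2*, and the ratio was 1.85 to 2.38 in the single livers.

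Values per liver follow by role, as CPM in the order of replicates 1 to 5, which carry no order of their own. Serine palmitoyltransferase catalyses the entry step of the pathway. *Sptlc1* (chr13:53332748-53377397, minus strand, GRCm38) was at 22.8, 24.2, 22.1, 20.6 and 22.7 CPM. Its livers lay close together, the highest being 1.17 times the lowest. *Sptlc2* (chr12:87305058-87388355, minus strand), which carries the lysine that binds the cofactor, was at 25.1, 23.2, 27.2, 21.7 and 26.2 CPM. Replicate 4 was the lowest for both subunits, while the highest differed, replicate 2 for *Sptlc1* and replicate 3 for *Sptlc2*.

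The ceramide synthases attach a fatty acyl chain to the sphingoid base. *Cers2* (chr3:95314791-95323599, plus strand) was at 474, 468, 466, 449 and 464 CPM. It was the steadiest of the 10 enzymes, the highest liver being 1.05 times the lowest. *Cers6* (chr2:68861441-69114282, plus strand) was at 18.9, 15.0, 14.0, 24.9 and 15.5 CPM. Replicate 4 stood above the rest, replicate 1 was next, and the other 3 were close together. *Cers5* (chr15:99734881-99772885, minus strand) was at 1.54, 2.02, 2.17, 1.86 and 1.30 CPM, from 27 to 77 reads a library. Its livers were spread without a gap, from replicate 5 at the low end to replicate 3 at the high end.

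*Degs1* (chr1:182275772-182282804, minus strand), the last step to ceramide, was at 76.4, 74.7, 73.6, 79.0 and 87.6 CPM. Replicate 5 was the highest, and the other 4 lay within a few CPM of one another. Per kilobase it stood at 0.239 ± 0.0191 times the level of *Cers2* (SD, n = 5).

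**Figure D2:**
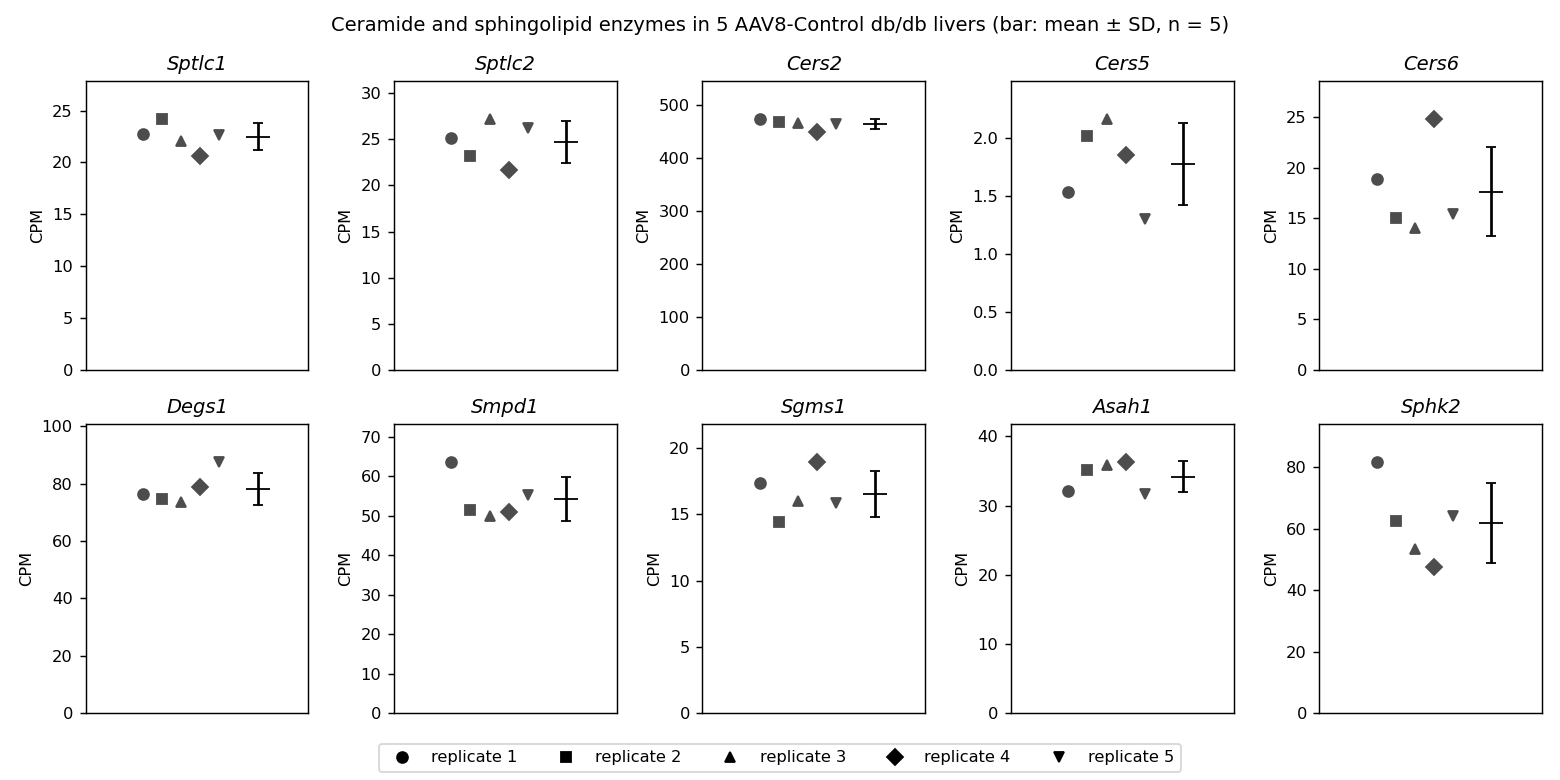
CPM of the 10 enzymes in 5 AAV8-Control livers (y axes, each starting at 0), with a symbol per replicate along the x axis and a bar for the mean ± SD (n = 5). Cers2 has the least relative spread, and Cers6 and Sphk2 have the most, with replicate 4 highest for Cers6 and lowest for Sphk2.

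Sphingomyelin is made from ceramide by sphingomyelin synthase and returned to ceramide by sphingomyelinase. *Sgms1* (chr19:32122727-32389714, minus strand) was at 17.4, 14.4, 16.0, 19.0 and 15.9 CPM. As for *Cers6*, replicate 4 was the highest and replicate 1 the next. *Smpd1* (chr7:105554360-105558389, plus strand) was at 63.6, 51.4, 49.9, 51.1 and 55.2 CPM. Replicate 1 stood above the rest, which lay within a few CPM of one another. Per kilobase, *Sgms1* was at 0.0970 ± 0.0128 times the level of *Smpd1* (SD, n = 5), and by the longest coding transcript at 0.183 ± 0.0241 times.

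Ceramide is broken down by ceramidases, and the sphingosine released is phosphorylated by sphingosine kinases. *Asah1* (chr8:41340197-41374773, minus strand) was at 32.1, 35.1, 35.8, 36.3 and 31.6 CPM. Replicates 1 and 5 were slightly below the other 3. *Sphk2* (chr7:45709467-45718002, minus strand), the kinase found in the nucleus and mitochondria as well as the cytosol, was at 81.8, 62.4, 53.4, 47.5 and 64.3 CPM. Replicate 1 was the highest, as for *Smpd1*, and replicate 4 the lowest. *Smpd1* was at 1.63 ± 0.263 times and *Sphk2* at 1.49 ± 0.398 times the level of *Asah1* per kilobase, and both ratios were above 1 in every liver.

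The enzymes differed in how much they varied between livers. The coefficient of variation (SD over mean, n = 5) was 1.98% for *Cers2*, and 0.453% of genes averaging 1 CPM or more varied less. It was 5.76% for *Sptlc1*, 6.41% for *Asah1*, 7.18% for *Degs1* and 9.13% for *Sptlc2*. *Smpd1* and *Sgms1* were at 10.3% and 10.4%, close to the median of 10.6% over all 11036 genes. *Cers5*, at 19.9%, *Sphk2*, at 21.1%, and *Cers6*, at 25.1%, varied most, and 84.3% and 89.4% of genes varied less than *Sphk2* and *Cers6*. Part of this order depended on the scaling. With TMM factors *Smpd1* was at 7.30%, below *Degs1* at 7.84%, *Sptlc2* at 8.48% and *Asah1* at 8.78%, and *Sphk2*, at 18.1%, was below *Cers5*, at 21.4%. The median over all genes was then 10.1%, *Cers2* remained the lowest at 2.10% and *Cers6* the highest at 26.1%.

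Counting error was far below the spread of *Sphk2* and *Cers6*: at their mean number of reads it gives a coefficient of variation of 2.60% and 4.79%. For *Cers5* it gives 14.8%, against 19.9% observed, and for *Sptlc1* 4.25%, against 5.76% observed. For *Cers2* the corresponding value was 0.933%. Counting error grows as reads fall, and the ranks of spread above are over genes of all levels, so they are not matched for level. Reads were not counted by molecular identifiers, so these values cover counting error only. In CPM without further scaling, replicate 4 was at an end of the range for most of the enzymes, the highest of the 5 livers for 3 and the lowest for 4. Without it, the mean of *Cers6* was 1.78 CPM per kilobase and that of *Sphk2* 15.7.

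Single livers set much of the spread of several enzymes. Without replicate 4 the coefficient of variation was 13.3% for *Cers6* and 0.918% for *Cers2*. Without replicate 1 it was 13.8% for *Sphk2* and 4.45% for *Smpd1*, and without replicate 5 it was 3.07% for *Degs1*. For the other 5 enzymes, no liver left out lowered it by as much as 1.5 times. These values are for CPM and were not recomputed with scaling factors. Replicate 1 had the highest TMM factor (1.05) and replicate 4 the lowest (0.973). Divided by the TMM or DESeq2 factors, *Cers2* is lowest in replicate 1 instead, so replicate 4 sets its spread in CPM only.

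**Figure D3:**
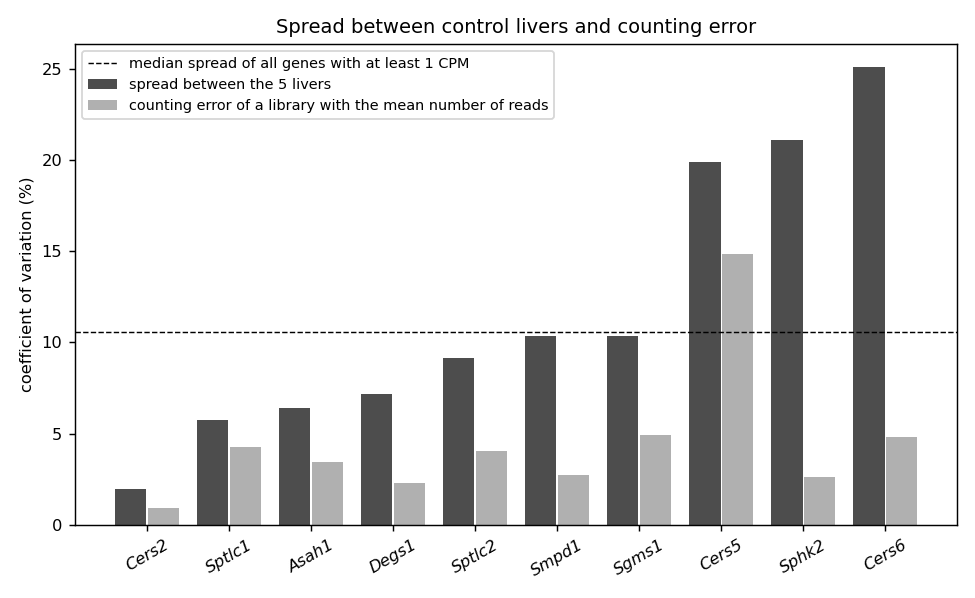
Coefficient of variation in percent (y axis) of each enzyme over the 5 AAV8-Control livers (dark bars) beside that expected from counting reads alone (light bars), with the enzymes ordered by spread on the x axis. The dashed line is the median of 10.6% over genes with at least 1 CPM, and Cers5, Sphk2 and Cers6 rise above it.

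The other genes of the pathway were taken from a list of 60, of which 53 had a row and 45 averaged 1 CPM or more. Their median level was 4.02 CPM per kilobase, against 8.20 for the 10 enzymes and 3.24 for all genes with at least 1 CPM. Their median coefficient of variation was 10.6%, against 9.74% for the 10 enzymes. Named below are *Samd8* and the most abundant gene of each role, chosen after their values were seen.

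Of the other subunits and the regulators of serine palmitoyltransferase, 4 of 6 had a row and all 4 had at least 1 CPM. *Ormdl3*, which restrains the enzyme, was the highest at 60.7 ± 4.79 CPM per kilobase (SD, n = 5), above *Sptlc1* and *Sptlc2*. *Kdsr*, the ketoreductase of the step that follows, was at 3.68 ± 0.288 CPM per kilobase. *Sgms2* was at 6.30 ± 0.915 CPM per kilobase and *Samd8*, a related enzyme that makes ceramide phosphoethanolamine, at 4.02 ± 0.606. Both were above *Sgms1*, but by the longest coding transcript *Samd8*, at 4.52 ± 0.681, and *Sgms1*, at 4.09 ± 0.424 CPM per kilobase, overlapped. Among the other genes listed under sphingomyelinases, *Smpdl3a* was the highest at 30.9 ± 1.78 CPM per kilobase. It is a relative of *Smpd1* known to act on nucleotides, and was listed there by family and not by activity.

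On the side of breakdown, *Acer2*, a Golgi ceramidase, was the highest of 3 other ceramidases at 3.58 ± 0.610 CPM per kilobase, or 6.08 by the longest coding transcript, below *Asah1* by either length. *Aldh3a2*, the fatty aldehyde dehydrogenase that clears the aldehyde left by sphingosine-1-phosphate lyase, was at 163 ± 14.3. *Psap*, the precursor of the saposins that help lysosomal enzymes reach their lipids, was at 243 ± 21.6 CPM per kilobase. By the longest coding transcript their order turned, with *Aldh3a2* at 297 ± 26.0 and *Psap* at 251 ± 22.3 CPM per kilobase. Both were above *Cers2* by either length. *St3gal5*, the synthase of the ganglioside GM3, led 6 genes of glycosphingolipid synthesis at 81.9 ± 16.8 CPM per kilobase. *Apom*, the plasma carrier of sphingosine-1-phosphate, led 6 transfer proteins and transporters at 65.2 ± 6.77, and *S1pr1* led 4 receptors of sphingosine-1-phosphate at 16.1 ± 2.27 CPM per kilobase.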

How the data were processed

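RNA-seq of 5 AAV8-Control livers of *db/db* mice was used. The series holds 10 libraries; comparisons that need an item not reported here were left out, and so were the tests planned for them. Per the labels, poly-A RNA was sequenced as single reads of 50 bases, and the submitters' processing notes name STAR 2.0.4b, Subread featureCounts 1.4.5 and GRCm38.p2. The authors deposited CPM, scaled to all reads counted on genes, a step not described in the sources used here. Dividing by the CPM of a single read gave whole reads for 100% of values (tolerance 0.05 reads). The table had 15236 lines for 15126 genes, as 110 lines were repeated. No 2 libraries agreed within counting noise (lowest chi-square per degree of freedom 15.9).

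CPM were divided by exon length (all annotated exons of GENCODE M21, GRCm38) to compare genes, so a gene whose liver isoform is shorter is understated. Counting error is the inverse square root of the mean reads. No test was made. Alternatives, chosen after seeing the data, were scaling by TMM (edgeR 4.0.16) or DESeq2 1.42.0 size factors in R 4.3.3, the longest coding transcript as length, and each liver left out. Gene bounds are those of GENCODE and promoter starts those of RefSeq. Members and lists were chosen with earlier results of these data known.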

Additional observations from a re-analysis of the deposited data

How the results depend on the processing

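The levels of the 10 enzymes per kilobase and 6 shares within families were recomputed under 8 alternatives chosen after seeing the data, which gave 128 values. TMM factors (0.973 to 1.05) changed a level by at most 0.426% and DESeq2 size factors (0.970 to 1.05) by at most 0.438%, and neither can change a share. Both sets of factors are centred on 1 over these libraries, so a mean level was bound to change little. The small change therefore does not speak to the stability of the levels. The coefficient of variation moved more, from 10.3% to 7.30% (TMM) or 7.37% (DESeq2) for *Smpd1* and from 6.41% to 8.78% or 8.80% for *Asah1*. Leaving out a liver changed a level by at most 10.2%. With 5 livers this cannot reach 1 SD, so it does not speak to stability. The length of the longest coding transcript moved 13, since most genes have more annotated exons than a single transcript holds. With it, levels in CPM per kilobase were 8.63 for *Sptlc1*, 3.68 for *Sptlc2*, 209 for *Cers2*, 0.641 for *Cers5*, 2.51 for *Cers6*, 38.2 for *Degs1*, 22.5 for *Smpd1*, 4.09 for *Sgms1* and 12.3 for *Asah1*. Shares were 98.4% for *Cers2*, 37.8% for *Sgms1*, 99.2% for *Sphk2* and 70.1% for *Sptlc1*. Depth limits *Cers5*, with 27 to 77 reads a library, most. No paired analysis was possible because values of a single group are given. The replicate block, other tests, pseudocounts and filters foreseen for a test between groups were not run.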
